A study of Mus musculus with 30 samples.

Results

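The measurements described here are the enrichment and depletion of transcripts in ribosome-bound RNA of serotonergic cells, set against total RNA of the whole hindbrain. The 15 arrays of the Slc6a4 line were taken by the line and fraction given in their labels, out of 30 arrays in the series. They are 7 arrays of translating ribosome affinity purification (TRAP), 4 arrays of total RNA taken from the lysate before the purification (Pre-IP) and 4 of total RNA left after it (Unbound). The other 15 arrays come from the Slc6a2 line and were used only where named.

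The study profiled noradrenergic and serotonergic cells of the mouse hindbrain by TRAP in males and females, with and without an inflammatory challenge. The animals of all 3 groups carried the bacTRAP transgene Tg(Slc6a4-EGFP/Rpl10a)JD60Jdd on a mixed B6;FVB background and were adult, 6 to 12 weeks old. They were held singly at 30 °C, with an implanted transponder to follow body temperature, and were injected with lipopolysaccharide (LPS) at 100 ug/kg or with sterile PBS. The design text names 4 males and 4 females for the line. TRAP RNA came from 2 PBS females, 1 PBS male, 2 LPS females and 2 LPS males, and Pre-IP and Unbound RNA each from 1 animal of every combination of sex and treatment. Amplification was run in 2 batches: 3 TRAP arrays and the 4 Pre-IP arrays belong to batch 1, and 4 TRAP arrays and the 4 Unbound arrays to batch 2. Kind of total RNA and amplification batch therefore cannot be told apart.

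Serotonergic neurons of the hindbrain lie in the raphe nuclei, project through the brain and spinal cord, and take part in the control of arousal, breathing, pain and body temperature. Slc6a4 encodes the transporter that returns serotonin from the synapse into the neuron. In TRAP, a promoter drives a ribosomal protein (Rpl10a) fused to EGFP in 1 cell type, and antibodies to EGFP pull the tagged ribosomes and the mRNA they are translating out of a lysate of the whole tissue. The recovered RNA is enriched for transcripts of the tagged cells, while transcripts of the other cells are depleted to the extent that untagged RNA is washed away. LPS, a component of the bacterial cell wall, causes fever and lethargy.

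These groups limit what the values can stand for. All tagged ribosomes come from 1 transgenic line in which regulatory sequence of Slc6a4 drives the fusion protein, and the total RNA of the same animals holds the tagged cells too. In RNA of a whole tissue, fewer cells of a type and less RNA per cell cannot be told apart. No table at hand pairs probes with genes, so the serotonergic label was not checked against markers, lists of genes could not be followed, and probes are given by identifier with no sequence. The labels do not tie arrays to named animals, so p-values measure the spread between these samples. The fits below hold no term for the animal, except an alternative with the mouse as a replicate block.

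TRAP arrays detected fewer probes than total RNA arrays, without overlap. At a detection p under 0.01, the TRAP arrays detected 17012 to 19424 of 45281 probes (mean 18393 ± 872, SD, n = 7), Unbound arrays 20990 to 21871, and Pre-IP arrays 22460 to 23122 (total RNA mean 22039 ± 740, SD, n = 8). The difference had a two-sided exact permutation p of 0.000155, the smallest that 6435 regroupings of the arrays can give (0.000233 adjusted over 3 measures). The signal was also held by fewer probes in TRAP RNA. The brightest 1000 probes carried 38.4% ± 1.12 (SD, n = 7) of the summed intensity there against 34.5% ± 0.816 (SD, n = 8) in total RNA, with the same exact permutation p. The brightest 100 carried 8.63% ± 0.43 (SD, n = 7) and 8.07% ± 0.27 (SD, n = 8), with a two-sided exact permutation p of 0.00389 (0.00389 adjusted). All 3 tests regrouped the arrays freely, across batches and across TRAP and total RNA arrays taken to be 1 animal. Their p-values therefore leave pairing and batch out of account, and the regroupings would be far fewer within pairs.

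Fraction separated the arrays along the first principal component, which held 52.3% of the variance. On the second component (9.20%) 1 TRAP array of batch 1, from a PBS female, stood apart at -99.01, where the nearest other TRAP array was at 9.67. That array also had the fewest detected probes of all 15. Pairs of TRAP arrays of 1 batch had a median correlation across probes of 0.97 (lowest 0.90, highest 0.98, 9 pairs), and pairs of TRAP and total RNA arrays of 1 batch one of 0.87 (21 pairs). A TRAP array and the total RNA array of the same sex, treatment and batch, taken to be 1 animal, had a median of 0.87 (7 pairs). Without the array that stands apart, the 7 remaining pairs of TRAP arrays of 1 batch had correlations of 0.93 to 0.98.

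Of 24218 probes tested with limma, 7042 were higher in TRAP and 7698 lower at an adjusted p under 0.05, which is 60.9% of all tested (29.1% higher and 31.8% lower). The median difference was -0.04 log2 units, and the middle 50% of probes lay between -0.60 and 0.48. Most called differences were small. Among the probes called higher, 2235 exceeded 1 log2 unit (2-fold), 293 exceeded 2, 51 exceeded 3, 16 exceeded 4 and 6 exceeded 5. Of those called lower, 3249 lay under -1, 555 under -2, 60 under -3 and 8 under -4, so falls outnumbered rises past 1 and past 2 log2 units and rises outnumbered falls past 4. Without the TRAP array that stands apart the counts past 3 were 60 higher and 51 lower, in the reverse order, and those past 4 were 17 and 5. A test against a 2-fold difference called 669 probes higher and 1178 lower, 7.63% of those tested.

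The balance of rises and falls rests on the scaling. Where TRAP and total RNA arrays were normalised separately, the median difference moved to -0.60, and 2755 probes were called higher and 14502 lower, whereas rises made up 47.8% of the calls with joint normalisation. Past 2-fold the separate normalisation gave 260 higher and 3424 lower. Differences in what follows are relative to the joint normalisation. Without the TRAP array that stands apart, 6647 probes were higher and 7110 lower, and 571 and 1037 past 2-fold.

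Among probes detected on all 15 arrays, ILMN_2606295 had the largest rise. Its log2 level in TRAP had a lowest value of 11.23, a median of 11.68 and a highest of 11.71. In Pre-IP RNA its levels were 6.77, 6.98, 7.02 and 7.27, and in Unbound RNA 5.73, 5.84, 6.17 and 6.38. All TRAP arrays lay over 3 log2 units above all total RNA arrays, and Pre-IP lay above Unbound without overlap. The difference was 5.02 log2 units (SE 0.13, limma, adjusted p = 8.4e-12).

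ILMN_2476405 had the next largest rise. Its TRAP levels ran from 11.42 over a median of 11.70 to 11.88. Its Pre-IP levels were 6.75, 6.78, 7.00 and 7.12, and its Unbound levels 5.69, 6.32, 6.80 and 7.44. TRAP and total RNA did not overlap, whereas the Unbound arrays spanned the whole Pre-IP range. The difference was 4.91 log2 units (SE 0.20, adjusted p = 5.2e-10).

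Depletion was largest for ILMN_2504686, which was bright in total RNA. Its TRAP levels ran from 7.68 over a median of 8.01 to 8.67. Its Pre-IP levels were 12.51, 12.70, 12.78 and 12.88, and its Unbound levels 12.31, 12.34, 12.44 and 12.67. TRAP lay far below both kinds of total RNA, which overlapped each other. The probe fell by 4.52 log2 units (SE 0.13, adjusted p = 2.8e-11).

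ILMN_2426691 was brighter still in total RNA and was also detected on every TRAP array. Its TRAP levels ran from 8.42 over a median of 8.82 to 9.02, its Pre-IP levels were 13.04, 13.19, 13.38 and 13.41, and its Unbound levels were 12.86, 12.90, 12.97 and 13.06. It fell by 4.32 log2 units (SE 0.09, adjusted p = 1.6e-12), with no overlap between TRAP and total RNA. Across the 7 pairs of TRAP and total RNA taken to be 1 animal each, both rises were positive in 7 of 7 pairs and both falls were negative in 7 of 7. The pair differences of ILMN_2504686 ran from -5.10 to -3.77 and those of ILMN_2426691 from -4.96 to -3.98.

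**Figure D1:**
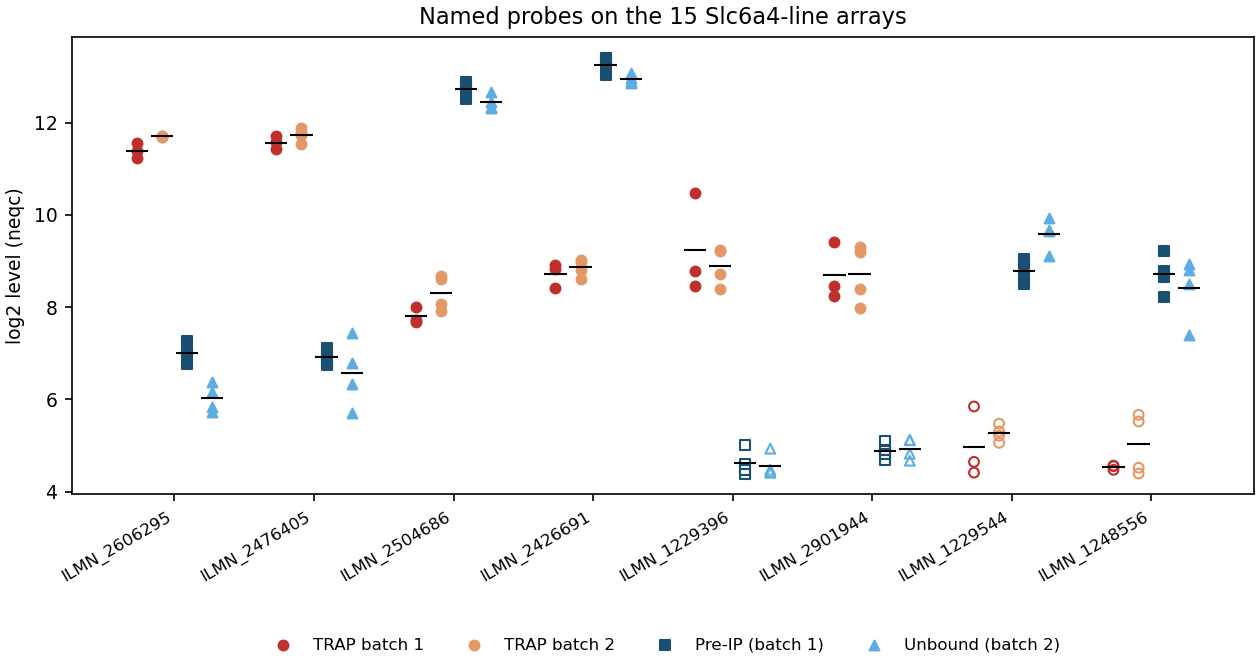
Log2 levels of 8 named probes on the 15 arrays of the Slc6a4 line, by fraction and batch; each symbol is 1 array, open symbols are arrays on which the probe was not detected at a detection p under 0.01, and bars are group means. TRAP symbols lie clear of total RNA symbols for each probe, from 11.23 to 11.71 against 5.73 to 7.27 for ILMN_2606295.

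Detection in 1 fraction alone was rare and lopsided. Both fractions shared 13585 probes detected on all 15 arrays, and 17417 of 45281 probes were detected on none. On all 7 TRAP arrays and no total RNA array 37 probes were detected (0.08% of all), against 467 (1.03%) on all 8 total RNA arrays and no TRAP array. As background, 14193 probes were detected on all 7 TRAP arrays and 17797 on all 8 total RNA arrays. On no TRAP array 22163 were detected, and on no total RNA array 18600. These overall counts lean the same way, and their part in the imbalance was not tested. For such probes the dim side has only a bound, taken per array as its own value there or, if higher, the dimmest value of any detected probe. At a looser detection p of 0.05 the numbers were 23 and 409, and at 0.01 without the TRAP array that stands apart they were 44 and 507.

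Among the 37 probes seen in TRAP alone, ILMN_1229396 had the highest mean level. Its TRAP levels ran from 8.39 over a median of 8.78 to 10.47, the highest being the LPS female of batch 1. On the Pre-IP arrays it stood at 4.39, 4.47, 4.60 and 5.01 and on the Unbound arrays at 4.41, 4.42, 4.47 and 4.93, none of them detected. TRAP was at least 12.2-fold higher. ILMN_2901944, the second of this kind, ran from 7.99 to 9.41 in TRAP and was at least 9.78-fold higher. No p-value is given for either, as both were chosen by detection in TRAP alone.

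ILMN_1229544 and ILMN_1248556 had the highest means among the 467 probes seen in total RNA alone. ILMN_1229544 stood at 8.49, 8.66, 8.93 and 9.03 in Pre-IP RNA and at 9.11, 9.64, 9.66 and 9.92 in Unbound RNA, so here Unbound lay above Pre-IP. It was at least 8.39-fold lower in TRAP. ILMN_1248556 ran from 7.39 to 9.21 in total RNA and lay at least 5.45-fold lower in TRAP (adjusted p = 8.7e-08).

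The same probes were looked up on the arrays of the Slc6a2 line, which share no RNA with these. Of the 37 probes seen in Slc6a4 TRAP alone, 27 were detected on none of that line's total RNA arrays, 5 on all of its TRAP arrays and 11 on none. Of the 467 seen in Slc6a4 total RNA alone, 256 were detected on all of its total RNA arrays, and 103 on none and 1 on all of its TRAP arrays. As background, 90.1% of all probes detected on no Slc6a4 total RNA array were detected on none in the Slc6a2 line, above the 73.0% among the 37. Of all probes detected on all 7 Slc6a4 TRAP arrays, 78.2% were detected on all Slc6a2 TRAP arrays, against 13.5% of the 37. Of all probes on all 8 Slc6a4 total RNA arrays 92.3% were on all in the other line, against 54.8% of the 467, and of those on no Slc6a4 TRAP array 82.1% were on none there, against 22.1%. These are shares at 1 detection limit, without a test.

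Enrichment and depletion were then followed over the abundance range. Abundance was the mean log2 level on the 7 total RNA arrays of the Slc6a2 line, so that no array enters both the axis and the difference, and the tested probes were divided into 10 bins of equal size, from a median abundance of 5.26 to one of 11.45. The share of probes called rose from 48.8% in the dimmest bin to 58.1% in bin 5 and 78.4% in the brightest. The spread between replicate arrays fell alongside, from a median SD of 0.46 to 0.11 log2 units in TRAP and from 0.36 to 0.12 in total RNA. In bin 1 a probe was detected on a median of 1 of 7 TRAP and 3 of 8 total RNA arrays, and from bin 5 upward on 7 and 8.

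Among bright probes large falls outnumbered large rises. In bin 10, 11 probes were past 2-fold higher in TRAP and 239 past 2-fold lower. The counts were 70 and 68 in bin 4, 85 and 140 in bin 5 and 46 and 195 in bin 9. In bin 1 they were 139 and 0, but there a fall had little room. Undetected probes had a median level of 4.69 ± 0.013 (SD, n = 7) on the TRAP arrays, and the total RNA level lay over 1 log2 unit above it for 7.81% of probes in bin 1, 44.5% in bin 2, 90.0% in bin 3 and 99.8% in bin 4. Of the 139 rises in bin 1, 112 were of probes detected on under 3 total RNA arrays, which passed the filter with the help of TRAP arrays. The balance of rises and falls in bins 1 and 2 is therefore set in part by floor and filter, and no direction is read from it. Among probes detected on all total RNA arrays of the Slc6a2 line, a filter that uses no Slc6a4 array, the counts were 59 and 43 in bin 4, 80 and 126 in bin 5 and 11 and 239 in bin 10. The 5th and 95th percentiles of the difference were -0.85 and 1.81 in bin 1 and -1.72 and 0.71 in bin 10. This tilt depends on the axis, which is total RNA like the term subtracted in the difference. On an axis from the mean of both fractions the percentiles were -1.21 and 0.76 in bin 1, -1.89 and 1.53 in bin 5 and -1.23 and 0.96 in bin 10. Falls past 2-fold outnumbered rises past 2-fold on that axis in each bin from bin 3 to bin 10. In bin 10 falls past 2-fold outnumbered rises past 2-fold under each of 6 other axes and processings tried, with 10 against 246 on an axis from the line's own total RNA and 48 against 127 on an axis from the mean of both fractions. In bin 4 the order was not stable, with 74 rises and 89 falls on the first of these axes, 69 and 152 on the second, 27 and 389 with separate normalisation and 32 and 0 without background correction. Without the TRAP array that stands apart, 55 rises and 56 falls were past 2-fold in bin 4, and 8 and 227 in bin 10.

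**Figure D2:**
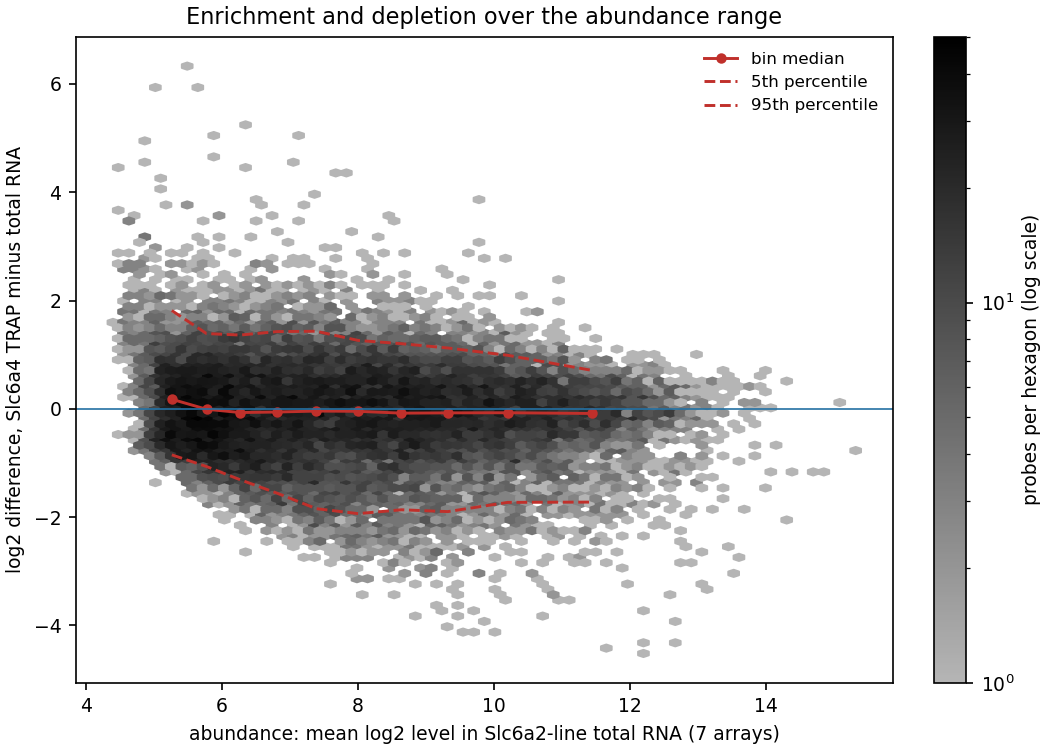
Log2 difference between Slc6a4 TRAP and total RNA (vertical) against abundance in Slc6a2 total RNA (horizontal, mean log2 level) for 24218 probes, shaded by the number of probes per hexagon; red points are bin medians and dashed lines the 5th and 95th percentiles of each bin. The upper percentile falls from 1.81 to 0.71 across the bins and the lower one from -0.85 to -1.72. On an axis from the mean of both fractions (not drawn) the upper one goes from 0.76 over 1.53 in bin 5 to 0.96. The lower one goes there from -1.21 over -1.89 to -1.23.

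The middle of the distribution moved little, and its sign was not stable. The bin median was 0.18 in bin 1, -0.04 in bin 5 and -0.09 in bin 10. In bin 1 it was 0.29 with the axis from Slc6a4 total RNA, -0.46 with the axis from the mean of both fractions and -0.39 with separate normalisation. In bin 10 it was 0.063, 0.21 and -0.33 with the mean axis, median centring and separate normalisation. Calls of any size had no stable direction either. In bin 1 they were 746 higher and 436 lower, but 318 and 988 with separate normalisation and 159 and 1027 on the mean axis. In bin 10 they were 805 and 1095, so that rises made up 42.4% of the calls, but 65.9% with median centring and 56.0% on the mean axis.

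**Figure D3:**
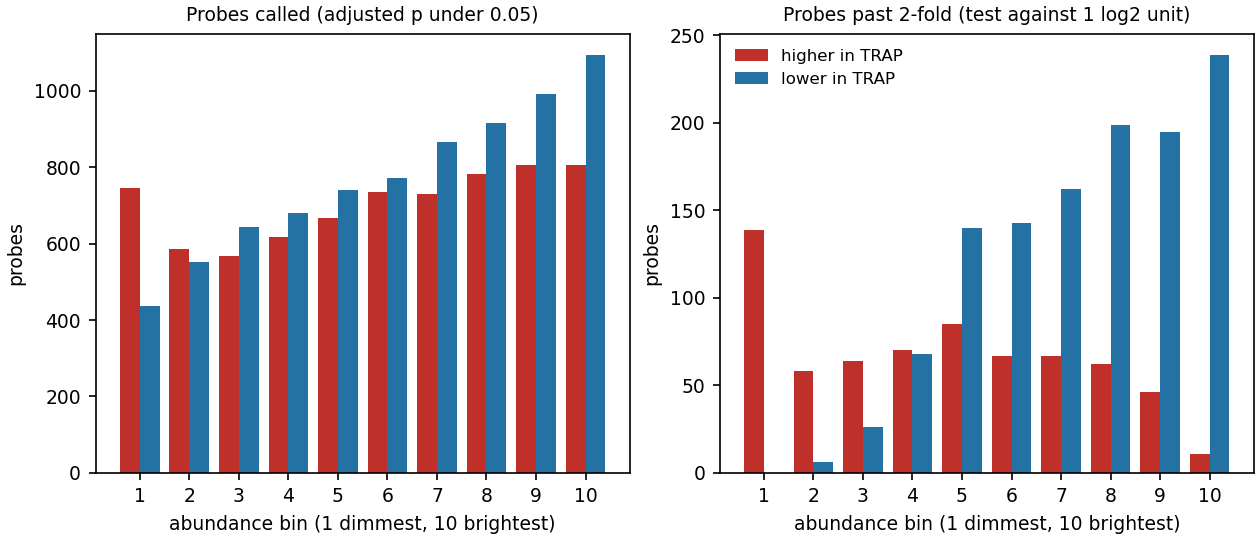
Number of probes called in TRAP against total RNA in each of 10 abundance bins (horizontal, from dimmest to brightest), for all calls on the left and for calls past 2-fold on the right; red bars are higher and blue bars lower in TRAP. Past 2-fold, there are 70 rises and 68 falls in bin 4 and 11 and 239 in bin 10, while in bin 1 only 7.81% of probes have room for a 2-fold fall.

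The 1% brightest tested probes of Slc6a2 total RNA (243 probes, level 12.54 or more) included 75 called higher and 128 called lower, and the median difference was -0.13. Past 2-fold, 43 were lower and 0 higher, and 16 lay under -2. The extremes were -4.32, which is ILMN_2426691, and 1.05. The 100 brightest probes of TRAP and the 100 brightest of Slc6a4 total RNA had 57 in common. Since each of these lists was chosen on levels that enter the difference, the calls among them are a description only: 74 of the TRAP list were called higher and 14 lower, and 31 and 56 of the total RNA list.

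Against Pre-IP RNA within batch 1, 4990 probes were higher in TRAP and 6130 lower (45.9% of those tested). Against Unbound RNA within batch 2 the counts were 6268 and 5875 (50.1%). In the same direction against both references 3523 probes were called higher and 3830 lower, while 79 were called higher over Pre-IP and lower than Unbound and 157 the reverse. These comparisons share no array but come from 1 joint fit. With separate normalisation the share of rises was 13.8% and 18.0% in place of 44.9% and 51.6%. Without the TRAP array that stands apart, the batch 1 counts were 3899 and 4695, and 2937 probes were called higher and 3301 lower against both references.

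The largest fitted rises over each reference were close to all or none, and those against undetected levels have no order among them. ILMN_2948296 stood at 10.60, 10.86 and 11.25 on the 3 TRAP arrays of batch 1 and at 4.63, 4.74, 4.85 and 4.97 on the Pre-IP arrays, with no Pre-IP array detecting it. It was at least 47.8-fold higher in TRAP. No p-value is given, as the probe passed the filter only with the help of TRAP arrays. Over both batches its TRAP arrays ran from 10.54 to 11.25 without a gap between the batches.

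ILMN_2729817 was among the largest fitted rises over both references. Its TRAP levels were 11.71, 11.78 and 11.83 in batch 1 against 5.41, 5.81, 5.94 and 5.95 in Pre-IP, a rise of 6.04 log2 units (SE 0.19, limma, adjusted p = 3.9e-10). In batch 2 they were 11.29, 11.44, 11.53 and 11.70, against 4.59, 4.81, 4.99 and 5.09 in Unbound. No Unbound array detected it, and TRAP was at least 62.4-fold higher (adjusted p = 3.9e-11 for the fitted difference, not the bound). Every Pre-IP array detected the probe and no Unbound array did. ILMN_2744603 showed the same order, at 11.24 to 11.58 over all TRAP arrays, 5.38 to 6.39 in Pre-IP and 4.54 to 5.54 in Unbound, where 2 of 4 arrays detected it, and rose by 6.26 log2 units over Unbound (SE 0.24, adjusted p = 1.2e-09).

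The largest falls below each reference differed in kind. ILMN_2436634 fell by 4.95 log2 units below Pre-IP (SE 0.34, adjusted p = 2.3e-07), at 5.59, 7.08 and 8.26 in TRAP against 11.84, 11.96, 11.99 and 12.23. Its lowest TRAP value, which did not reach the detection limit, was that of the array that stands apart, and the fall was 4.12 units without that array. Against Unbound RNA it was -3.99 (SE 0.31). ILMN_2504686, already described, fell by 4.91 below Pre-IP (SE 0.19) and fell by 4.13 below Unbound (SE 0.17).

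ILMN_2491930 was detected on no TRAP array, stood at 8.68, 9.03, 9.24 and 9.70 in Unbound RNA, and was at least 9.07-fold lower in TRAP. No p-value is given, as it passed the filter through total RNA arrays alone. In Pre-IP RNA the same probe stood at 6.38, 7.03, 7.08 and 7.68, below every Unbound array. ILMN_1254326 was detected on 0 of 4 TRAP arrays of batch 2 and 3 of 3 of batch 1. Its Unbound levels were 9.18, 9.70, 10.11 and 10.14, and TRAP was at least 13.9-fold lower in batch 2 (adjusted p = 7.9e-08 for the fitted difference, not the bound). In batch 1 the fall below Pre-IP was 1.08 (SE 0.33, adjusted p = 0.017), with TRAP at 6.39, 8.06 and 8.68.

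The difference between both enrichments was tested in itself. Enrichment over Pre-IP in batch 1 exceeded enrichment over Unbound in batch 2 for 778 probes and was below it for 1600 (9.82% of those tested). With median centring in place of quantile normalisation the counts were 392 and 3126, so that rises made up 11.1% of the calls and not 32.7%. Without 1 array the count of calls ran from 1239 (TRAP of the LPS female in batch 2) to 2888. It was 1462 without the LPS male of batch 1 in TRAP, 1378 without the Pre-IP array of the LPS female, 1427 without that of the PBS female, and 1700 without the array that stands apart. This difference holds the difference between the kinds of total RNA and that between the TRAP batches, and the parts were set side by side.

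TRAP arrays of the 2 batches differed at 141 probes higher and 210 lower in batch 1 (1.45%), or 65 and 63 without the array that stands apart, and Pre-IP and Unbound arrays at 1883 higher and 1217 lower in Pre-IP (12.8%). With median centring the latter counts were 1860 and 638, or 74.5% higher and not 60.7%. Without 1 array they summed to 1569 (without the Pre-IP array of the LPS female) to 3688, with 1824 without the Pre-IP array of the PBS female and 1975 without the Unbound array of the LPS female. The counts of calls do not rank the sizes of these differences. The median SE was 0.276 between TRAP batches and 0.247 between Pre-IP and Unbound. The SD over probes was 0.477 and 0.446 in that order, and the distance between quartiles 0.469 and 0.562. Median correlations across probes were 0.945 (12 pairs of TRAP arrays of different batches) and 0.950 (16 pairs of Pre-IP and Unbound arrays).

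The 2 probes with the largest reference difference above 0 followed the TRAP batch. ILMN_1221149 stood at 10.61, 10.80 and 10.83 on the TRAP arrays of batch 1 and at 5.17, 5.44, 5.90 and 5.91 on those of batch 2. None of the 8 total RNA arrays detected it (4.72 to 5.26). TRAP was at least 42.8-fold higher than Pre-IP in batch 1, whereas 1 of 4 TRAP arrays detected it in batch 2. The reference difference was 5.02 log2 units (SE 0.37), a size set against undetected levels. No p-value is given, as the probe passed the filter only with the help of the TRAP arrays of batch 1.

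ILMN_1237834 had the same form, at 10.11, 10.26 and 10.26 in batch 1 and 5.79, 5.91, 6.09 and 6.24 in batch 2 of TRAP. In total RNA it was at 5.67 to 6.20 (Pre-IP) and 6.37 to 7.07 (Unbound). Its reference difference was 4.88 (SE 0.36, adjusted p = 1.1e-05). Both probes were then read on the Slc6a2 TRAP arrays, a check added after their values were seen. ILMN_1221149 was there at 11.75 ± 0.28 (SD, n = 4) in batch 1 and 6.72 ± 0.58 (SD, n = 4) in batch 2, and ILMN_1237834 at 11.52 ± 0.13 (SD, n = 4) and 6.91 ± 0.31 (SD, n = 4). The batches did not overlap in either line.

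In the other direction ILMN_1251449 was detected on 0 of 3 TRAP arrays of batch 1 (4.89, 4.93 and 6.00) and 4 of 4 of batch 2 (7.90, 7.94, 8.16 and 8.23). Its total RNA levels ran from 6.42 to 7.62 in Pre-IP and from 5.52 to 7.75 in Unbound RNA. Its reference difference was -3.28 (SE 0.64, adjusted p = 0.0076), a size set against undetected levels in TRAP of batch 1. ILMN_2456776 was likewise undetected on the TRAP arrays of batch 1, at 4.96, 5.31 and 5.76, and detected on those of batch 2, at 6.22, 6.48, 6.73 and 6.75. It was also brighter in Pre-IP (7.54 to 8.52) than in Unbound RNA (5.89 to 6.33). Its reference difference was -2.94 (SE 0.44, adjusted p = 0.0017), likewise set against undetected levels in TRAP of batch 1. The larger part lay in total RNA, with means of 7.83 and 6.11 there against 5.34 and 6.55 in TRAP of batches 1 and 2. On the Slc6a2 TRAP arrays these 2 probes overlapped between the batches, from 5.85 to 8.44 in batch 1 and up to 7.13 in batch 2 for ILMN_1251449 and from 4.62 to 7.19 and up to 6.05 for ILMN_2456776.

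Pre-IP and Unbound RNA themselves differed most at ILMN_1241536 and ILMN_2999654 above 0 and at ILMN_2564539 and ILMN_2491930 below 0. ILMN_1241536 stood at 8.66, 8.74, 9.10 and 9.13 in Pre-IP and at 6.82, 6.82, 6.84 and 7.12 in Unbound, a difference of 2.01 (SE 0.18, adjusted p = 2.7e-05). TRAP, at 8.42 to 9.08, overlapped Pre-IP and lay above all Unbound arrays, so the probe was called enriched over Unbound (1.99, SE 0.18) and not over Pre-IP (-0.23, SE 0.20, adjusted p = 0.37).

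ILMN_2564539 went the other way, at 7.01, 7.04, 7.60 and 7.93 in Pre-IP and 9.08, 9.36, 9.93 and 10.07 in Unbound, a difference of -2.22 (SE 0.39, adjusted p = 0.0029, and 0.080 with all 30 arrays in the fit). ILMN_2491930, described above, differed by -2.12 (SE 0.29, adjusted p = 0.00052). ILMN_2999654 differed by 1.96 (SE 0.54, adjusted p = 0.030), but its Pre-IP levels of 6.30, 7.09, 8.73 and 8.91 overlapped its Unbound levels of 4.51, 5.90, 5.90 and 6.90, and 11 of 26 alternatives lost the call, with an adjusted p of up to 0.18. They were the fits without the Unbound array of the PBS female, PBS male or LPS male, without any 1 of the 4 Pre-IP arrays, with no filter, with no variance trend, without sex and treatment terms, and with all 30 arrays.

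Every one of the 7 TRAP arrays was closer to Pre-IP than to Unbound RNA, whatever its own batch. TRAP arrays of batch 1 had correlations across probes of 0.83 to 0.89 with the Pre-IP arrays and of 0.80 to 0.86 with the Unbound arrays. TRAP arrays of batch 2, amplified with the Unbound arrays, had 0.89 to 0.91 with Pre-IP and 0.86 to 0.88 with Unbound. Within each TRAP array the 4 Pre-IP values lay above the 4 Unbound values without overlap. In the Slc6a2 line the mean correlation was higher with Pre-IP for 8 of 8 TRAP arrays, with no overlap in 2 of 4 arrays of batch 1 and 4 of 4 of batch 2. The probes are shared by all these values, which are given as a description.

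**Figure D4:**
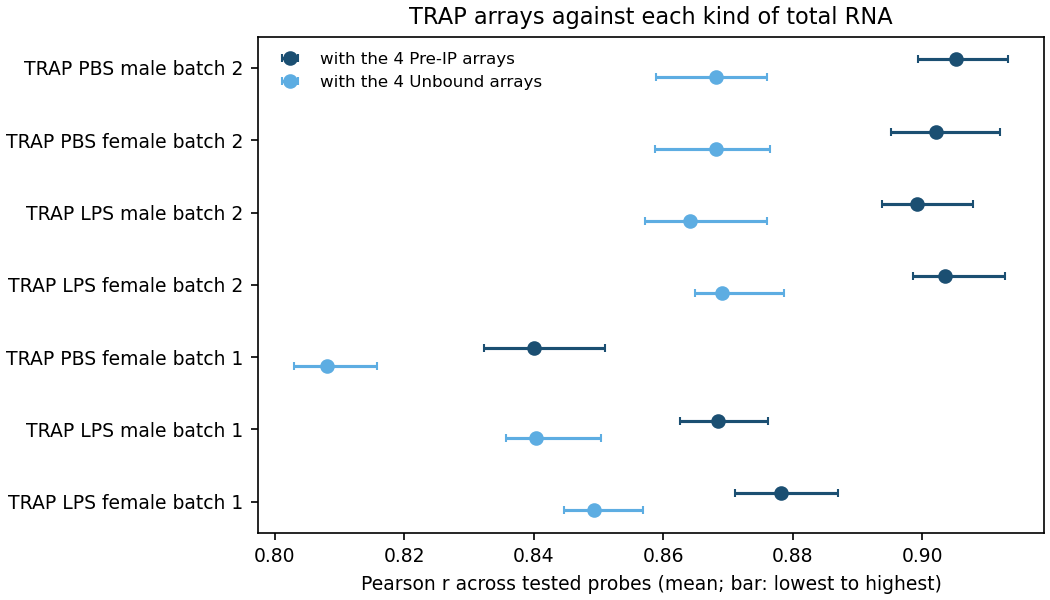
Pearson correlation across tested probes (horizontal) of each Slc6a4 TRAP array with the 4 Pre-IP arrays (dark) and the 4 Unbound arrays (light); points are means and bars run from the lowest to the highest of 4. Dark bars lie right of light bars for all 7 TRAP arrays, also in batch 2, at 0.89 to 0.91 against 0.86 to 0.88.

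Crossing batches and references gave the same order. TRAP of batch 1 had 11910 calls against Unbound (49.2% of those tested) and 11120 against Pre-IP, and TRAP of batch 2 had 12143 against Unbound and 10543 against Pre-IP (43.5%). The SD of the difference over probes was 1.05 and 0.97 for batch 1 and 0.94 and 0.83 for batch 2. With all 7 TRAP arrays, 5785 probes were higher and 6667 lower than Pre-IP (51.4%) and 6645 and 6819 than Unbound (55.6%). Without the TRAP array that stands apart, TRAP of batch 1 had 9551 calls against Unbound and 8594 against Pre-IP, TRAP of batch 2 had 12822 and 11271, and all TRAP arrays 12953 and 11824. These alternatives were added after the data were seen, and share arrays with each other.

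The difference between Pre-IP and Unbound was read against enrichment measured without the Slc6a4 Pre-IP and Unbound arrays. Enrichment was taken as Slc6a4 TRAP over the total RNA of the Slc6a2 line. That total RNA is itself 3 Pre-IP arrays of batch 1 and 4 Unbound arrays of batch 2. The median of Pre-IP minus Unbound was 0.18 log2 units for the 61 probes enriched by over 3 log2 units, 0.14 for the 325 over 2 (the 61 included), 0.17 for 2098 probes between 1 and 2, and 0.05 between 0 and 1. It was -0.02 between -1 and 0, -0.16 between -2 and -1 and -0.28 for the 582 probes under -2, against 0.01 over all 26312 probes. Enriched classes thus lay above the median of all probes and depleted classes below it, with no steady order among those over 1. Pre-IP minus Unbound of the Slc6a2 line had a like order over the same classes of Slc6a4 enrichment. Its medians were 0.19, 0.12, 0.14, 0.047, -0.008, -0.086 and -0.11, against 0.019 over all. The order is therefore not particular to the Slc6a4 line, although Slc6a2 total RNA arrays enter both sides here. For the Slc6a2 line another axis was Slc6a2 TRAP over Slc6a4 total RNA, added after the data were seen so that no total RNA array enters both sides. There the medians were 0.14 (over 3), 0.087 (over 2), 0.048, 0.032, 0.015, -0.035 and -0.044, against 0.019 over all. As Pre-IP is batch 1 and Unbound batch 2 in both lines, the parts of purification and amplification in these medians were not tested.

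Each batch was also normalised and fitted alone, so that the 2 enrichments share no array. Batch 1 alone called 4112 probes higher and 5482 lower of 22615 (42.4%), and batch 2 alone 6333 and 5977 of 21949 (56.1%). Over the 21220 probes tested in both, the differences had a Pearson correlation of 0.76 and a Spearman correlation of 0.73 across probes, which are not independent replicates. Of 4015 probes called higher in batch 1, 93.2% had the same sign in batch 2 and 75.0% were called higher there, against 51.8% and 29.0% of all probes. Of 5133 called lower, 88.8% had the same sign and 68.4% were called lower, against 48.2% and 27.2%. In opposite directions 77 and 137 probes were called. In the other direction, 48.9% of the 6162 probes called higher in batch 2 and 60.8% of the 5780 called lower were called the same way in batch 1. Without the TRAP array that stands apart, batch 1 alone called 3193 higher and 4344 lower, the Pearson correlation was 0.73, and 74.8% of the probes called higher and 71.5% of those called lower were called the same way in batch 2.

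**Figure D5:**
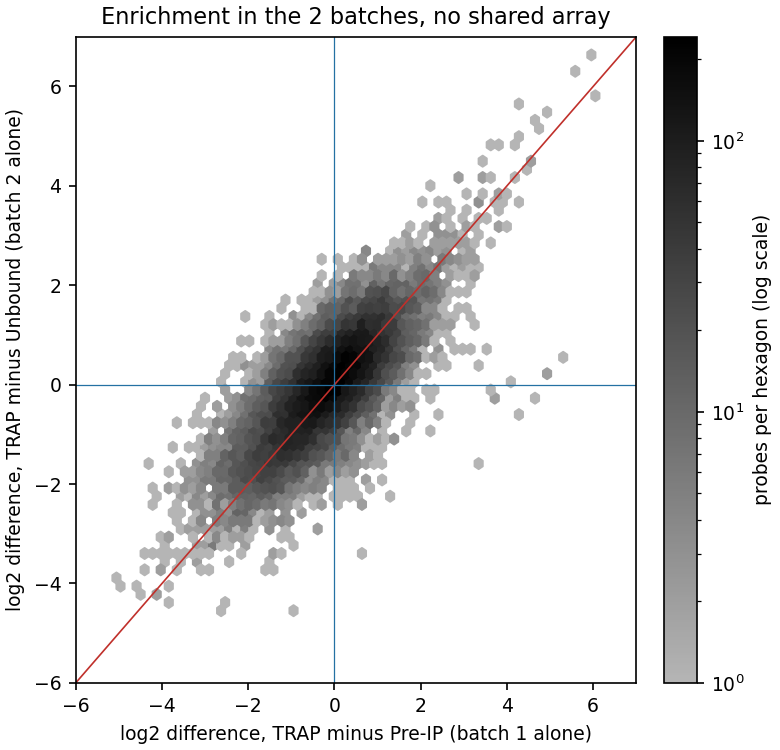
Log2 difference between TRAP and Unbound RNA in batch 2 alone (vertical) against that between TRAP and Pre-IP RNA in batch 1 alone (horizontal) for 21220 probes, shaded by the number of probes per hexagon; the red line marks equal values. Probes spread along the line with a correlation of 0.76.

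Enrichment did not differ detectably by sex. Of 24218 probes 0 passed (limma, 0%, 811 at an unadjusted p under 0.05). The smallest p above 0 (females minus males) were those of ILMN_2738310, at 2.96 log2 units (SE 0.56, adjusted p = 1.00), and ILMN_2900462, at 1.91 (SE 0.39, adjusted p = 1.00). ILMN_2738310 was detected on 2 of 4 female and 0 of 3 male TRAP arrays and on 0 of 4 female and 3 of 4 male total RNA arrays. Below 0 they were ILMN_1215942, at -0.39 (SE 0.08, adjusted p = 1.00), and ILMN_2949886, at -1.86 (SE 0.43, adjusted p = 1.00). ILMN_2949886 was detected on 2 of 4 female and 3 of 3 male TRAP arrays and on all total RNA arrays.

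Enrichment after LPS against PBS likewise had 0 probes past the threshold (limma, 0%, 1303 at an unadjusted p under 0.05). The smallest p belonged to ILMN_2677859. Its TRAP levels were 9.34, 9.91, 10.04 and 10.30 after LPS and 5.29, 6.25 and 6.64 after PBS, and its total RNA levels were 4.54 to 5.91 and 4.62 to 5.44. All LPS TRAP arrays of both sexes and batches lay above all PBS TRAP arrays, and total RNA was near the detection limit, with 3 of 4 and 1 of 4 arrays detecting it. The difference of enrichment was 3.52 log2 units (SE 0.48, adjusted p = 0.13), and over 26 alternatives the adjusted p ran from 0.0019 to 0.75, with 5 past the threshold. These were no background correction, an offset of 50, array weights, all 30 arrays in the fit, and leaving out the Unbound array of the LPS female (adjusted p = 0.021). On Slc6a2 TRAP arrays the probe was detected on 0 of 8.

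The other 3 LPS probes with the smallest p were detected on most arrays. ILMN_2848906 had a difference of 1.91 log2 units (SE 0.32, adjusted p = 0.50), with TRAP at 7.94 ± 0.52 (SD, n = 4) after LPS and 6.60 ± 0.59 (SD, n = 3) after PBS. ILMN_2674284 had one of -0.88 (SE 0.18, adjusted p = 0.87), with TRAP at 8.81 ± 0.12 (SD, n = 4) and 9.83 ± 0.11 (SD, n = 3) and no overlap. ILMN_2763459 had one of -1.02 (SE 0.21, adjusted p = 0.87), with TRAP at 9.44 ± 0.23 (SD, n = 4) and 10.16 ± 0.25 (SD, n = 3) and no overlap. TRAP of PBS animals held 3 arrays, 1 of them the array that stands apart.

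Serotonergic enrichment was set against noradrenergic enrichment in a joint fit of all 30 arrays. Of 26312 probes, 996 were more enriched in the Slc6a4 line and 919 less (7.28%). With median centring the counts were 618 and 1235, or 33.4% in place of 52.0% in the first direction, and without the Slc6a4 array that stands apart they were 746 and 640. Of the 996 probes, 636 were called enriched in the Slc6a4 line. The 996 had a median difference of 0.73 in the Slc6a4 line and -0.46 in the Slc6a2 line. Of the 919, 516 were called depleted in the Slc6a4 line, and the medians of the 919 were -0.53 and 0.44. These counts share their arrays with the choice of the probes. As background, 5840 of all 26312 probes were called higher and 5953 lower in Slc6a4 TRAP with all 30 arrays in the fit. Counts of calls in the Slc6a2 line are not given, as they have no such background here.

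ILMN_2729817 and ILMN_2744603 had the largest line differences in favour of the Slc6a4 line, at 6.87 (SE 0.44, limma, adjusted p = 2.6e-09) and 6.29 log2 units (SE 0.36, adjusted p = 6.2e-10). In Slc6a2 TRAP they stood at 4.96 ± 0.93 (SD, n = 8) and 5.27 ± 0.79 (SD, n = 8), detected on 1 and 2 of 8 arrays, against 11.59 ± 0.20 (SD, n = 7) and 11.39 ± 0.13 (SD, n = 7) in Slc6a4 TRAP. Each was detected on 4 of 7 Slc6a2 total RNA arrays, so both line differences rest in part on undetected levels. ILMN_2922875 had the largest difference the other way, at -6.77 (SE 0.32, adjusted p = 8.6e-11). It was depleted in Slc6a4 TRAP by 1.53 log2 units (difference -1.53, SE 0.23, adjusted p = 1.8e-05) and enriched in the Slc6a2 line by 5.25 (SE 0.23). ILMN_2669234 had a fitted difference of -6.56 (SE 0.27) and was detected on none of the 15 Slc6a4 arrays, so its size in that line is a difference between undetected levels. It passed the filter through Slc6a2 TRAP arrays alone, so no p-value is given. In the Slc6a2 line it was detected on 8 of 8 TRAP and 0 of 7 total RNA arrays, at least 50.9-fold higher in TRAP. The size of the line difference is thus set against undetected levels on both sides.

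The most enriched and depleted probes of the Slc6a4 line were shared with the other line to differing degrees. ILMN_2606295 was enriched in the Slc6a2 line too, at 3.51 (SE 0.15, adjusted p = 1.3e-12), and the line difference was 1.57 (SE 0.22, adjusted p = 7.6e-05). ILMN_2476405 was at least 16.6-fold higher there, a bound because no Slc6a2 total RNA array detected it, so that no line difference is given. ILMN_2504686 was lower there, at -3.87 (SE 0.14), with a line difference of -0.67 (SE 0.20, adjusted p = 0.0502). ILMN_2426691 was lower there too, at -3.56 (SE 0.15), with a line difference of -0.76 (SE 0.22, adjusted p = 0.039).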

How the data were processed

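RNA was measured on Illumina bead arrays, 1 per sample. The table the authors deposited gives, for each of 45281 probes and each array, an intensity and the p-value of detection. The deposited intensities ran from 8.2 to 60960 and were neither normalised nor background-subtracted, as judged from the values. The submitters' processing notes name lumi. Its role, like the scanner software and how beads were summarised, is not given in the sources used here.

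Intensities of the 15 Slc6a4 arrays were corrected by normexp with the detection p, quantile normalised and put on the log2 scale with an offset of 16 (neqc of limma 3.58.1, R 4.3.3). Probes with a detection p under 0.01 on at least 3 arrays were tested. The model held 4 means (TRAP by batch, Pre-IP, Unbound) and terms for sex and treatment within each fraction, with 7 residual degrees of freedom. TRAP against total RNA is the mean of both within-batch differences. Tests were lmFit and eBayes with a trend, treat against 2-fold, and Benjamini-Hochberg adjustment at 0.05. The number of arrays limits the precision. The fit of the 15 arrays was also run on simulated data. Their errors were independent, with no batch or mouse effect, so that run cannot check pairing or batch.

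The members, lists and tests were chosen with earlier results of these data known. Named probes are, per comparison, the 2 largest called rises and falls. For TRAP against total RNA they had to be detected on all 15 arrays with the same sign in both batches, with the 2 brightest probes seen in each fraction alone added as bounds. Where under 4 passed, the smallest p decided. TRAP and total RNA that match in batch, treatment and sex were taken to be 1 mouse, from the 8 mice per line of the design text and the sex, treatment and batch in the labels. This pairing entered the pair values and the alternative with the mouse as a replicate block. The other fits held no term for the mouse, so their p-values treat paired arrays as independent. The letter in the titles goes with the fraction (B and C for TRAP, E and F for total RNA), so its part cannot be told apart from TRAP. No 2 arrays held identical values.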

Additional observations from a re-analysis of the deposited data

Results flagged for a closer look

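Among 47 groups of 4, 7 or 8 arrays examined for a value far from the others, 3 held one, where chance gives about 1 in 20. ILMN_1229396 had its highest TRAP level, 10.47, on the LPS female of batch 1, with the next at 9.24. The same probe had its highest Unbound level, 4.93, on the LPS male, with the next at 4.47, and no Unbound array detected it. On the second principal component 1 TRAP array, the PBS female of batch 1, lay at -99.01, with the nearest at 9.67.

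Enrichment differed between the Slc6a4 and Slc6a2 lines by a direct test at 1915 probes. Among them were ILMN_2729817 (6.87 log2 units), ILMN_2744603 (6.29), ILMN_2922875 (-6.77) and ILMN_2669234 (-6.56, a size set against undetected levels). The sizes of ILMN_2729817 and ILMN_2744603 also rest in part on undetected levels, with 1 and 2 of 8 Slc6a2 TRAP arrays detecting them.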

How the results depend on the processing

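No named probe changed direction under any alternative tried, 1056 values kept their side of the threshold, 12 lost the call and 5 gained it. Past 2-fold the count of 1847 became 3684 with separate normalisation, 868 without background correction, 1228 with an offset of 50 and 1200 with all 30 arrays in the fit. With all 30 arrays, 7388 probes were called against Pre-IP, 531 for the reference difference and 1138 between Pre-IP and Unbound. The reference difference had 1457 calls without the variance trend and 1500 with array weights, and from 1239 to 2888 without 1 array. Pre-IP against Unbound had 1569 to 3688 without 1 array. For treatment 1 probe was called without background correction, with an offset of 50, with array weights and with all 30 arrays, and from 0 to 1 without 1 array, with 1 without the TRAP or the Unbound array of the LPS female (batch 1 and batch 2). Unfiltered, 9509 probes were higher and 8003 lower. The bin 1 median was 0.29, -0.46, -0.39, 0.072 and 0.040 with the Slc6a4 axis, the mean axis, separate normalisation, no background correction and no filter, and the bin 10 median 0.063, -0.33 and 0.21 with the mean axis, separate normalisation and median centring. Probes seen in TRAP alone numbered 23 at a detection p under 0.05. With the mouse as a replicate block 13689 probes were called for TRAP against total RNA, 1676 past 2-fold and 1592 for the reference difference, and no count moved by over 1.5 times. The causes of these shifts were not tested. Depth of an array is its signal over background: in the dimmest bin most probes were undetected on most TRAP arrays.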
